A study of Mus musculus with 22 samples.

Results

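Early opening peaks are 262 stretches of liver chromatin that opened in advanced steatohepatitis on both of the diets used to cause it. Averaged over the diets, they were open in mild steatohepatitis nearly as far as in advanced steatohepatitis. They were chosen from 68827 peaks of 200 bp on the mouse mm10 build by 3 conditions. Levels are counts per 1e6 counts of a library (CPM), and a change is the log2 ratio of a pair of group means after adding 0.5 CPM to each. The change in advanced against control livers had to be at least 1 on each diet and the control mean at least 2 CPM on each diet, which 2262 opening peaks met. The mild change averaged over the diets then had to reach 80% of the averaged advanced change. This left 262 peaks, 11.6% of the opening peaks and 0.381% of all peaks. The 2000 that missed the last condition are called other opening peaks. Since the conditions use the levels of control, mild and advanced livers, the changes of the 262 peaks between these stages are a description and carry no test.

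The assay was ATAC-seq, a transposase-based test of open chromatin, and 22 male HEP-INTACT mice gave the nuclei. Their hepatocyte nuclei bear a tag used to pull them out of whole liver. What drives the tag is not given in the sources used here. Mild and advanced disease came from 20 weeks on FPC, a diet high in fructose, palmitate and cholesterol, or from 7 weeks on CDAHFD, a high-fat diet with defined amino acids and no choline. The control mice of each diet were of the same tagged kind and ate a low fat diet over the same weeks. Liver histology split the mice on each diet into a mild group, with steatosis and inflammation, and an advanced group, which had marked fibrosis as well. Both groups of a diet had the same weeks on it, so early names the stage of disease and not a time. The 6 groups hold 4 control, 4 mild and 3 advanced libraries per diet, and every library is a separate mouse.

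Hepatocytes are the parenchymal cells of the liver, and they store triglyceride in lipid droplets when fat supply exceeds its use. Regions that gain accessibility are usually promoters, at which transcription starts, or enhancers, which bind transcription factors and act on a gene from a distance. Bulk ATAC-seq counts cuts over many nuclei, so a peak open in more nuclei and a peak more open in each nucleus cannot be told apart.

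Sequence is shown for members that lie on a promoter, since a promoter ties a peak to its gene. The bases are from RefSeq (build GRCm38.p6) and lie both in the peak and in the 250 bases before the start of the gene. Capitals mark matches to TGANTCA (AP-1), TTGCNNAA (C/EBP) and GGAAGT (ETS), on either strand. Ttc39aos1, Adamts1 and Airn are those of the 5 members with the largest mild change within 1 kb of a start, 1 per nearest gene, for which RefSeq bases could be read, and the lipid droplet genes Plin4 and Cidec were added after their values were seen. The stretch of Ttc39aos1 is chr4:109406258-109406405 (minus strand) and that of Adamts1 is chr16:85803114-85803292 (minus). Airn covers chr17:12741189-12741310 (plus), Plin4 chr17:56109818-56110018 (minus) and Cidec chr6:113434770-113434970 (minus). The sources differ for Cidec, since the deposited annotation puts its peak in intron 1 of 5, 890 bp from the nearest start.
Ttc39aos1: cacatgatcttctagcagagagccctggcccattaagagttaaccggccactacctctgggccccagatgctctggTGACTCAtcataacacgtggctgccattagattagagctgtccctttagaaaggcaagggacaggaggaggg
Adamts1: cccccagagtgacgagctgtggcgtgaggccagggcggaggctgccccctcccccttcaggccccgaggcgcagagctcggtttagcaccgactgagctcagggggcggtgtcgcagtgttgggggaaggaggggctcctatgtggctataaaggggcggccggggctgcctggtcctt
Airn: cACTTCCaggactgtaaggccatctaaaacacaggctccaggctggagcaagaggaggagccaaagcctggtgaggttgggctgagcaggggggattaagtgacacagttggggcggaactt
Plin4: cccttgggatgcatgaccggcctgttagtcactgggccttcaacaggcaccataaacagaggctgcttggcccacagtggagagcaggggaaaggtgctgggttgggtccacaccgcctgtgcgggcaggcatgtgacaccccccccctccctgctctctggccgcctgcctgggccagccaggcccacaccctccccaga
Cidec: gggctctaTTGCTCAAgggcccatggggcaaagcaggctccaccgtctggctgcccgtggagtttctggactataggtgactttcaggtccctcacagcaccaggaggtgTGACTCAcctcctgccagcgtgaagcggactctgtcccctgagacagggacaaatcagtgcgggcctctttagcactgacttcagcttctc
The Ttc39aos1 and Cidec stretches each hold the AP-1 letters TGACTCA, and the Cidec stretch also holds TTGCTCAA. The Airn stretch holds the ETS letters on its other strand. None of the motifs searched was found in the Adamts1 and Plin4 stretches.

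Total counts per library, in units of 1e6, lay between 3.79 and 9.33, and the correlation between libraries of the same group lay between 0.926 and 0.970 across peaks. All 10 hepatocyte markers had a peak within 50 kb. Their summed level was 1769 to 1890 CPM in controls, 1574 to 1748 CPM in mild and 1449 to 1649 CPM in advanced livers on FPC, and 1771 to 1907, 1543 to 1656 and 1551 to 1654 CPM in the same order on CDAHFD. Of 12 cholangiocyte markers, 10 had a peak, and Cftr was among those with none. Their level was 299 to 328 CPM in controls, 356 to 391 CPM in mild and 490 to 591 CPM in advanced livers on FPC, and 303 to 346, 357 to 377 and 435 to 466 CPM in the same order on CDAHFD. Of the 262 members, 1 lay at a lymphocyte marker and 0 at a hepatocyte, cholangiocyte, stellate cell, macrophage or endothelial marker. Of the 2000 other opening peaks, 6 lay at cholangiocyte, 3 at endothelial and 1 at stellate cell markers. At hepatocyte, macrophage and lymphocyte markers there were 0 of them. The sets differ in size, so nothing is read from these counts. The 3 of 12 stellate cell markers with a peak, which do not include Col3a1 and Des, summed to 30.7 to 45.4 CPM in controls, 29.2 to 43.0 CPM in mild and 48.9 to 67.0 CPM in advanced livers on FPC, and to 38.7 to 51.6, 40.8 to 46.8 and 47.0 to 57.0 CPM in the same order on CDAHFD. The 9 of 12 endothelial markers with a peak summed to 195 to 201, 183 to 210 and 227 to 236 CPM on FPC, and to 228 to 254, 198 to 218 and 227 to 264 CPM on CDAHFD. The 5 of 12 macrophage markers with a peak, which do not include Clec4f, summed to 54.1 to 63.9, 50.6 to 55.3 and 47.1 to 48.2 CPM on FPC, and to 58.1 to 65.6, 51.5 to 54.8 and 47.1 to 52.3 CPM on CDAHFD. The part of other cell types in the member values was not tested.

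The members had low levels in controls and most of their gain was present in mild livers. Their summed level averaged 1273.8 ± 126 CPM in FPC controls (SD, n = 4), 3610.7 ± 77.6 CPM in mild FPC livers (n = 4) and 4063.8 ± 42.1 CPM in advanced FPC livers (n = 3). On CDAHFD it averaged 1254.5 ± 188 CPM in controls (n = 4), 3738.5 ± 126 CPM in mild livers (n = 4) and 4355.6 ± 111 CPM in advanced livers (n = 3). All mild libraries lay above all control libraries of their diet and under all its advanced libraries. Control libraries were the most spread for their level, from 1125 to 1416 CPM on the FPC schedule and from 1066 to 1443 CPM on the CDAHFD schedule. The other opening peaks summed to 9382 ± 132 CPM in FPC controls, 17019 ± 744 CPM in mild and 30307 ± 2702 CPM in advanced FPC livers. Per peak, the median control level was 3.76 CPM for members, 3.72 CPM for other opening peaks and 9.90 CPM for all peaks.

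**Figure D1:**
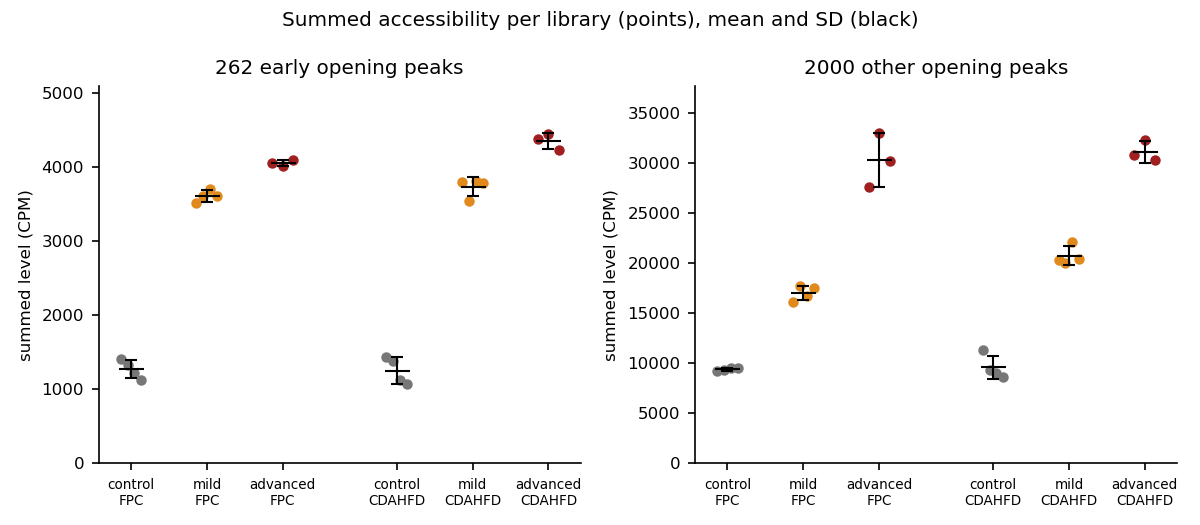
Summed accessibility (CPM, vertical axis) of the 262 early opening peaks (left) and the 2000 other opening peaks (right) in each library (points), by stage and diet, with the group mean and SD in black. Early opening peaks averaged 1273.8 CPM in controls, 3610.7 CPM in mild and 4063.8 CPM in advanced FPC livers, and other opening peaks 9382, 17019 and 30307 CPM in the same order.

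The median mild change of a member was 1.32 on FPC and 1.45 on CDAHFD (log2), and the median advanced change was 1.40 on FPC and 1.56 on CDAHFD. For other opening peaks the median mild change was 0.73 on FPC and 0.96 on CDAHFD, while the median advanced change was 1.49 and 1.5. The averaged mild change was 86.6% of the averaged advanced change in the median member, with quartiles of 82.7% and 93.8% and a range of 80.01% to 154%. It was 56.5% in the median other opening peak. In 43 members the mild change exceeded the advanced change. The average over the diets hides some spread, since 151 members reached 80% on each diet, 65 were under 80% on FPC and 46 were under 80% on CDAHFD. The members are the upper end of a continuous range, with 111 members at 80% to 85% and 154 other opening peaks at 75% to 80%.

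**Figure D2:**
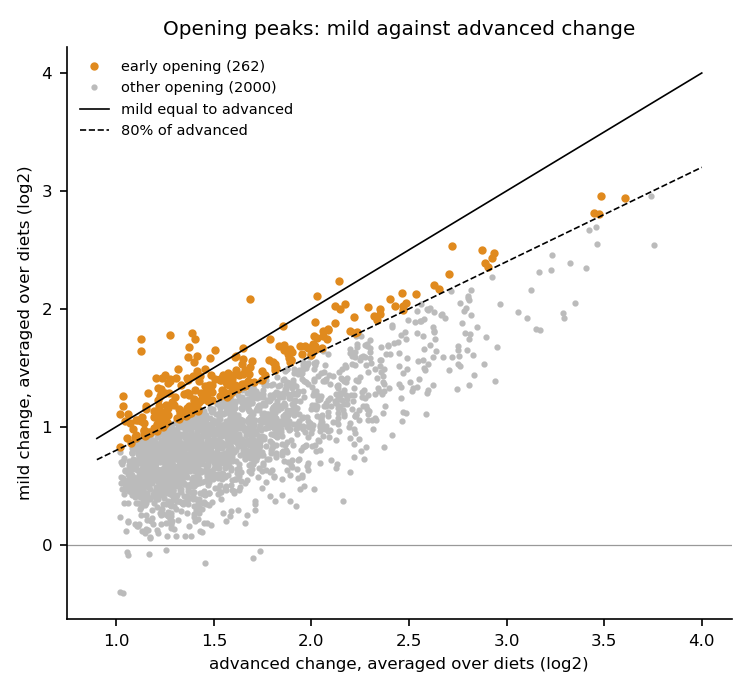
Mild change (vertical axis) against advanced change (horizontal axis), each the log2 change from control averaged over the diets, for 262 early opening peaks and 2000 other opening peaks (points). The dashed line marks 80% of the advanced change, where members begin, and 43 members lie above the solid line of equal change.

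By edgeR's quasi-likelihood test with Benjamini-Hochberg adjustment over all peaks, 259 members were called higher in mild than in control livers on FPC (15.1% of all peaks were) and 260 on CDAHFD (21.1%). In advanced livers 261 were called higher on FPC (27.0% of all peaks) and 262 on CDAHFD (26.6%). These counts follow from the choice of members. The members without a call in mild FPC livers were nearest to Plekha6, Adamtsl4 and Gm38404, and those without one in mild CDAHFD livers to Dysf and Mir1983. In 249 members on each diet every mild library lay above every control library, which held for 15.5% of all peaks on FPC and 19.5% on CDAHFD. Every advanced library lay above every control library in 261 members on FPC (27.1% of all peaks) and 258 on CDAHFD (26.0%).

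Among members with a start within 50 kb, the largest mild changes were at a promoter on chromosome 4 and near the genes of a small Maf factor and of a matrix protease. Farther from a start, an intergenic member 66600 bp from Gm19510 had an averaged mild change of 2.94, next to 2.95 at the promoter. At the promoter of the noncoding gene Ttc39aos1 (chr4:109406205-109406405, 48 bp before the start), FPC libraries held 1.44, 2.51, 2.07 and 2.87 CPM in controls, 20.9, 19.2, 18.8 and 17.9 CPM in mild livers, and 29.3, 32.6 and 25.7 CPM in advanced livers. CDAHFD libraries held 4.56, 2.77, 1.31 and 2.02 CPM in controls, 25.9, 27.5, 25.9 and 23.7 CPM in mild livers, and 34.4, 36.1 and 36.7 CPM in advanced livers. The stages did not overlap on either diet, and the gap between controls and mild livers was the wider one. The fitted mild change was 3.05 ± 0.22 on FPC and 3.26 ± 0.18 on CDAHFD (log2 ± SE, edgeR).

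Mafk encodes a small Maf protein, a DNA-binding partner of NRF2 and related factors. Its member lies in intron 1 of 2 (chr5:139796988-139797188), 5552 bp after the start. On FPC it held 1.92, 4.49, 2.32 and 3.62 CPM in controls, 17.1, 22.7, 19.6 and 18.9 CPM in mild livers, and 31.4, 40.2 and 33.8 CPM in advanced livers. The CDAHFD values were 2.56, 1.72, 2.44 and 2.86 CPM in controls, 22.4, 24.7, 28.3 and 24.4 CPM in mild livers, and 33.0, 35.6 and 33.9 CPM in advanced livers. No stage overlapped another on either diet.

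Adamts1 encodes a secreted metalloprotease that cuts proteoglycans of the extracellular matrix. Its promoter peak (chr16:85803092-85803292, 79 bp before the start) held 2.28, 3.70, 3.73 and 3.12 CPM in FPC controls, 22.2, 33.0, 26.4 and 30.4 CPM in mild FPC livers, and 36.3, 36.4 and 41.5 CPM in advanced FPC livers. The CDAHFD libraries held 2.0, 3.22, 3.04 and 2.77 CPM in controls, 19.9, 22.2, 21.1 and 17.0 CPM in mild livers, and 41.7, 41.0 and 31.7 CPM in advanced livers. The mild libraries lay far above controls on both diets but nearer to advanced ones on FPC. The mild change was 87.1% of the advanced change on FPC and 74.5% on CDAHFD, so this peak met the rule through the average.

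Sik1 encodes a kinase of the AMPK-related family. Its stronger member, 18354 bp before the start, held 2.16, 2.25, 4.80 and 3.74 CPM in FPC controls, 14.3, 22.9, 23.8 and 12.2 CPM in mild FPC livers, and 27.2, 24.7 and 26.3 CPM in advanced FPC livers. The mild FPC libraries spread widely without reaching the controls. On CDAHFD this peak held 2.10 to 3.82 CPM in controls, 16.0 to 19.1 CPM in mild and 21.5 to 31.9 CPM in advanced livers. Another Sik1 member, 14817 bp before the start, had smaller fitted mild changes of 1.27 ± 0.19 on FPC and 1.05 ± 0.18 on CDAHFD. Members near BC029722, Zfp608, 9030616G12Rik and Dmrt1i completed the 8 largest of those within 50 kb of a start, counting 1 per gene, with fitted mild changes of 2.41 to 2.74 on FPC and 2.35 to 2.62 on CDAHFD.

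Some loci held several members. Of 194 genes within 50 kb of a member, 178 had 1 and 16 had more, and 40 members lay in 21 neighbouring pairs less than 10 kb apart, of which 4 pairs overlapped. Ttc39a had 4 members, at its start, 308 bp before it, and 3582 and 3907 bp after it in intron 2 of 17, beside the Ttc39aos1 promoter peak. The deposited annotation names the same transcript for the Ttc39aos1 promoter peak as for the peak at the Ttc39a start. The member at the Ttc39a start held 1.68, 2.11, 2.90 and 3.12 CPM in FPC controls, 14.7, 13.8, 10.7 and 12.9 CPM in mild FPC livers, and 19.6, 16.5 and 20.4 CPM in advanced FPC livers. In CDAHFD libraries it held 2.84 to 3.49 CPM in controls, 13.7 to 17.0 CPM in mild and 17.2 to 21.5 CPM in advanced livers. Of the 4, the peaks at 308 bp and 3907 bp had mild changes of 109% and 101% of the advanced change, while the peaks at the start and at 3582 bp had 83.7% and 86.6%. The BC029722 pair lay in intron 4 of 8 of an overlapping transcript, 12422 and 13740 bp from the start, with mild shares of 86.8% and 84.7%.

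Genes of lipid droplets and fat uptake were among the members. Of 142 peaks within 50 kb of the 22 lipid droplet and PPARG genes with a peak, 4 were members (2.82%, against 0.373% of all peaks within 50 kb of a start) and 3 were other opening peaks (2.11% against 2.93%). These members were at Cd36, Cidec, Plin4 and Pnpla2, of which Cidec and Pnpla2 are described here after their values were seen. Since the list was chosen with earlier results known, the share is a description.

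Plin4 encodes a perilipin, a coat protein of lipid droplets. Its promoter peak (chr17:56109818-56110018, 116 bp before the start) held 14.5, 10.4, 7.62 and 6.49 CPM in FPC controls, 30.1, 29.7, 32.5 and 30.0 CPM in mild FPC livers, and 31.0, 19.7 and 20.3 CPM in advanced FPC livers. On CDAHFD there were 8.55, 11.2, 6.02 and 4.87 CPM in controls, 21.2, 23.8, 24.9 and 26.6 CPM in mild livers, and 19.9, 26.7 and 25.7 CPM in advanced livers. The mild libraries were close to each other on FPC, and 2 of the 3 advanced FPC libraries lay under all of them.

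Cd36 encodes a membrane protein that takes up long-chain fatty acids. The peak at one of its promoters (chr5:17849726-17849926, 34 bp before the start) held 10.4, 12.9, 3.4 and 3.74 CPM in FPC controls, 19.6, 19.9, 22 and 19.2 CPM in mild FPC livers, and 15.3, 16.1 and 16.5 CPM in advanced FPC livers. For CDAHFD the peak held 5.13, 7.04, 2.33 and 2.94 CPM in controls, 17.5, 15.9, 15.9 and 17.7 CPM in mild livers, and 17.8, 13.7 and 14.8 CPM in advanced livers. Controls spread widely on each schedule, yet every mild library lay above every control. All advanced FPC libraries lay between the controls and the mild libraries.

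Cidec encodes a protein that makes lipid droplets fuse. Its member (chr6:113434770-113434970) lies in intron 1 of 5 in the deposited annotation, 890 bp from the nearest start. It held 13.2, 11.4, 11.1 and 10.8 CPM in FPC controls, 30.0, 31.6, 34.0 and 31.3 CPM in mild FPC livers, and 28.3, 26.2 and 28.1 CPM in advanced FPC livers. On CDAHFD it held 11.8, 13.8, 9.24 and 8.65 CPM in controls, 23.4, 24.0, 27.4 and 27.7 CPM in mild livers, and 37.3, 39.7 and 33.0 CPM in advanced livers. Advanced libraries were thus under the mild ones on FPC and above them on CDAHFD. Pnpla2 encodes the triglyceride lipase ATGL, and its member, 1795 bp after the start, held 5.64 to 7.79 CPM in controls, 14.1 to 18 CPM in mild and 15.6 to 21.4 CPM in advanced livers on FPC. Angptl4, an inhibitor of lipoprotein lipase, had a member 2002 bp before its start with a fitted mild change of 1.39 ± 0.23 on FPC and 1.51 ± 0.20 on CDAHFD.

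**Figure D3:**
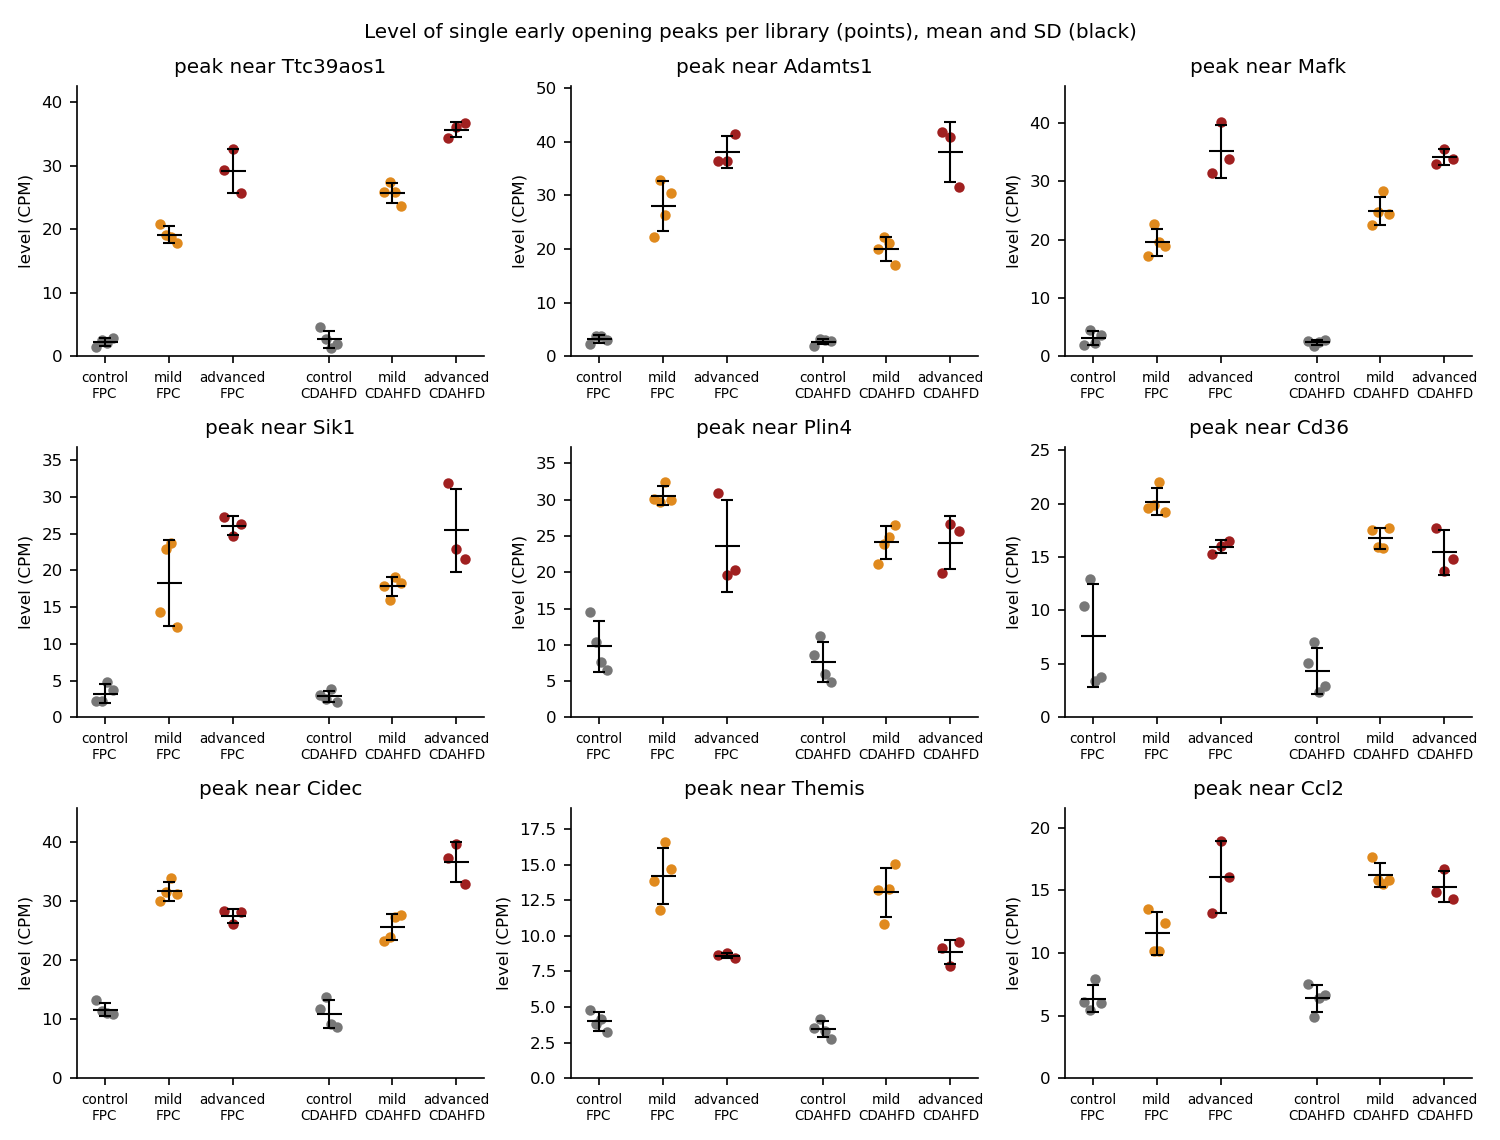
Level (CPM, vertical axis) of 9 early opening peaks, each named by its nearest gene, in every library (points), by stage and diet, with the group mean and SD in black. Ttc39aos1, Adamts1 and Mafk are higher in advanced than in mild livers, whereas the Cd36 peak holds 19.2 to 22 CPM in mild and 15.3 to 16.5 CPM in advanced FPC livers, and the Themis peak 11.8 to 16.6 and 8.42 to 8.76 CPM.

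Stress and immediate early genes had single members. Cdkn1a encodes the cell cycle inhibitor p21. Its member in intron 1 of 2, 708 bp after the start, held 1.68, 2.38, 2.40 and 2.74 CPM in FPC controls, 5.88, 6.04, 6.07 and 7.46 CPM in mild FPC livers, and 5.11, 5.33 and 6.75 CPM in advanced FPC livers. The CDAHFD values were 2.49, 3.22, 3.10 and 3.11 CPM in controls, 4.59, 5.31, 5.12 and 4.13 CPM in mild livers, and 7.58, 7.98 and 6.73 CPM in advanced livers. The mild libraries overlapped the advanced ones on FPC and lay under them on CDAHFD, with mild shares of 112% and 50.8%. Ier3, an immediate early gene, had a member with fitted mild changes of 1.39 ± 0.29 on FPC and 1.34 ± 0.26 on CDAHFD. Trib3, a stress-induced pseudokinase, had one with 2.39, 4.14, 5.98 and 7.46 CPM in mild FPC livers against 1.25 to 3.36 CPM in FPC controls, groups that overlapped.

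Genes of secreted signals held further members. Ccl2 encodes a chemokine that attracts monocytes. Its promoter peak (chr11:82035438-82035638, 39 bp before the start) held 6.12, 5.42, 7.95 and 5.99 CPM in FPC controls, 13.6, 10.2, 10.1 and 12.4 CPM in mild FPC livers, and 13.2, 18.9 and 16.1 CPM in advanced FPC livers. In CDAHFD libraries it held 7.55, 4.87, 6.44 and 6.64 CPM in controls, 17.6, 15.8, 15.5 and 15.9 CPM in mild livers, and 14.9, 16.7 and 14.3 CPM in advanced livers. No mild library reached down to a control on either diet. The ligand gene Wnt4 had a member 37160 bp from its start with fitted mild changes of 1.53 ± 0.24 on FPC and 1.54 ± 0.20 on CDAHFD. The Notch ligand gene Jag1 had one 37504 bp before its start, at 1.31 ± 0.37 on FPC and 1.39 ± 0.37 on CDAHFD, where 1 CDAHFD control held 10.03 CPM against 1.43 to 2.85 CPM in the others. Saa3, an acute phase gene, had one at 0.85 ± 0.25 on FPC and 1.48 ± 0.22 on CDAHFD.

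Of the cytoskeleton and membrane genes, Anxa2, which encodes a phospholipid-binding annexin, had 2 members. The one 4757 bp before the start held 4.80, 2.77, 1.49 and 2.49 CPM in FPC controls, 15.7, 10.7, 11.8 and 11.7 CPM in mild FPC livers, and 6.53, 7.08 and 8.42 CPM in advanced FPC livers, so all advanced libraries lay under all mild ones. On CDAHFD its mild libraries (5.04 to 8.95 CPM) and advanced libraries (6.73 to 8.66 CPM) overlapped. Tubb2a, a tubulin gene, had a member 1927 bp before its start with 29.3 to 38.3 CPM in mild FPC livers against 7.86 to 12.5 CPM in FPC controls.

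A few members were more open in mild than in advanced livers on both diets. The highest mild share, 154%, was at a peak in intron 1 of 3 of a transcript at Themis (chr10:28695057-28695257), a gene of thymocyte selection. It held 4.80, 3.83, 4.14 and 3.24 CPM in FPC controls, 13.8, 11.8, 16.6 and 14.7 CPM in mild FPC livers, and 8.62, 8.76 and 8.42 CPM in advanced FPC livers. On CDAHFD there were 3.56, 4.19, 3.34 and 2.77 CPM in controls, 13.2, 10.8, 13.3 and 15 CPM in mild livers, and 9.15, 7.90 and 9.56 CPM in advanced livers. On each diet the 3 stages did not overlap, with the mild libraries highest. Themis is the lymphocyte marker that a member was nearest to. The summed level at the 4 of 11 lymphocyte markers with a peak was 274 to 292 CPM in controls, 269 to 293 CPM in mild and 219 to 240 CPM in advanced livers on FPC, and 282 to 312, 260 to 282 and 242 to 251 CPM in the same order on CDAHFD. Cd3e, Cd3d, Cd79a, Ms4a1, Nkg7 and Il7r were among those with no peak. The next mild shares were 146% near Olfr1336, 139% near 1700025K24Rik and 129% near Styxl1.

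The members with the highest control levels were distal peaks near Ptpn1, Fam131c and Tbc1d1 and a promoter peak of Stk40. Ptpn1 encodes a phosphatase that acts on the insulin receptor. Its peak lies 103859 bp before the start and held 22.8, 19.0, 24.3 and 15.6 CPM in FPC controls, 51.6, 31.5, 41.0 and 29.7 CPM in mild FPC livers, and 54.8, 52.6 and 44.1 CPM in advanced FPC livers. Its CDAHFD controls spread most, at 28.1, 34.3, 12.5 and 6.80 CPM, under 51.1 to 53.9 CPM in mild and 51.6 to 62.5 CPM in advanced livers. Tbc1d1, a Rab GTPase-activating protein gene, held 39.9 to 47.3 CPM in mild FPC livers against 10.3 to 20.3 CPM in FPC controls. Members just inside the limit of 80% were near Rhog (80.01%) and Krt20 (80.1%). The peaks just outside it were near Abcc2 (79.99%), which encodes a canalicular transporter, 4933433H22Rik (79.9%) and Mthfd1l (79.9%).

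Between the stages, edgeR's quasi-likelihood test with Benjamini-Hochberg adjustment called 32 members higher (14.1% of all peaks) and 8 lower (15.3%) in advanced than in mild FPC livers. On CDAHFD it called 29 higher (8.97%) and 2 lower (7.81%). The rule limits these counts, which are a description. Without advanced FPC replicate 2 the 32 came to 13 and the 8 to 2, and the 8 came to 4 without advanced FPC replicate 3, mild FPC replicate 3 or mild FPC replicate 4. With a minimum mean of 50 counts, which left only 175 members in the test, the 8 came to 3. Without advanced CDAHFD replicate 2 the 29 came to 13 and the 2 to 0, and the 2 came to 0 to 3 with another mild or advanced CDAHFD library left out. Every advanced library lay above every mild library in 52 members on FPC (17.3% of all peaks) and 67 on CDAHFD (13.7%). The median change of advanced against mild livers was 0.183 in members and -0.0136 over all peaks on FPC (log2, edgeR). On CDAHFD these medians were 0.229 and -0.0145, and the rule limits the values of the members.

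The mild change was then set side by side on the diets. The rule used its average over the diets, and also the control level and the advanced change of each diet, so the differences between the diets come from the values that chose the members and are a description. The difference, FPC minus CDAHFD, had a median of -0.09 over the members on the log2 scale, with a median SE of 0.31 and a range of -1.48 to 1.89, and it was positive in 104 of them. By edgeR's quasi-likelihood test with Benjamini-Hochberg adjustment, 1 member had a larger mild change on FPC (1.80% of all peaks did) and 6 had a larger one on CDAHFD (1.70%). DESeq2 called 3 and 8 members, and 1402 and 1507 of all 68827 peaks. Nothing is read from these counts, since the rule used the same libraries.

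The member with the larger change on FPC lay 55695 bp from the start of B230214G05Rik, in exon 3 of 3 of a noncoding transcript. It held 29.0, 30.6, 35.2 and 28.9 CPM in mild FPC livers against 1.92, 5.42, 1.74 and 0.748 CPM in FPC controls. For CDAHFD the peak held 15.9, 13.7, 11.8 and 18.1 CPM in mild livers against 5.56, 6.29, 2.92 and 2.69 CPM in controls. The difference between the diets was 1.89 ± 0.39 (log2 ± SE, edgeR), and all mild FPC libraries lay above all mild CDAHFD libraries.

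The reverse held for an overlapping pair of members in intron 3 of 15 of a transcript at Tyw1, a gene of tRNA modification. The stronger one (chr5:130264721-130264921) held 11.6, 18.9, 18.5 and 18.1 CPM in mild FPC livers against 5.63 to 5.88 CPM in FPC controls. It held 22.8, 22, 23.7 and 21.9 CPM in mild CDAHFD livers against 3.78, 1.95, 2.92 and 2.10 CPM in CDAHFD controls. The mild change was smaller on FPC by edgeR, with differences of -1.48 ± 0.25 at this peak and -1.39 ± 0.31 at its neighbour. Controls differed too, since FPC controls stood above CDAHFD controls by 1.07 (log2) at the stronger peak.

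An intergenic member nearest to the sulfotransferase gene Sult2a6 lay 52177 bp from its start. At this peak mild livers held 12.8, 11.2, 13.9 and 14.3 CPM on FPC against 25.1, 23.6, 21.5 and 30.2 CPM on CDAHFD. Controls lay between 4.70 and 6.86 CPM on both schedules. The difference was -1.28 ± 0.23 (log2 ± SE, edgeR). Further calls were at a member nearest to Arhgap18, though 223646 bp from its start (-1.09 ± 0.25), and at a member nearest to Tgfa (-0.91 ± 0.21). The former lay in intron 57 of 63 of a transcript in the deposited annotation. The latter lay 12344 bp from the start of Tgfa, which encodes a ligand of the EGF receptor. These genes were named after their values were seen.

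**Figure D4:**
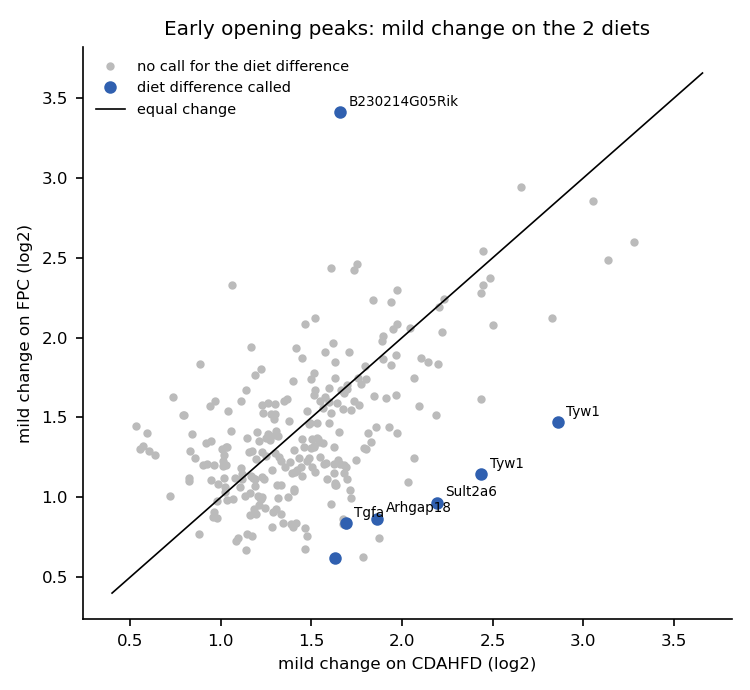
Mild change on FPC (vertical axis) against mild change on CDAHFD (horizontal axis), log2 of the group means with 0.5 CPM added, for the 262 early opening peaks (points). The line marks equal change, and the 7 members called for a difference between the diets by edgeR are drawn larger, 1 above the line and 6 under it, most with the name of their nearest gene.

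The advanced change and the control level of each diet are values that the rule used, so their differences between the diets are a description too. For the advanced change DESeq2 called 0 members larger on FPC and 3 larger on CDAHFD, and 530 and 891 of all 68827 peaks. By edgeR 0 members were called larger on FPC (0.667% of all peaks) and 3 larger on CDAHFD (0.978%). The calls were the Tyw1 pair and the Arhgap18 member, and 1 call was left without any of advanced FPC replicates 1 and 3, FPC control replicate 3 and advanced CDAHFD replicates 1 and 2, while there were 5 without CDAHFD control replicate 2. Between the control groups edgeR called 4 members higher in FPC controls at 20 weeks (2.08% of all peaks) and 1 in CDAHFD controls at 7 weeks (0.632%). Beside Tyw1, those higher in FPC controls were near Prdm1, a transcriptional repressor gene (5.69 CPM in FPC and 2.33 CPM in CDAHFD controls), Tubb2a (10.1 and 5.61 CPM) and Slc22a12 (5.38 and 2.90 CPM). The one lower in FPC controls was near Clasp1 (3.83 CPM in FPC and 8.38 CPM in CDAHFD controls). Without FPC control replicate 1 there were 3 such calls in all, without FPC control replicate 4 there were 11, and without CDAHFD control replicate 2 there were 8.

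Peaks that the rule did not choose were then followed at the same genes. For each gene, counts were summed over its peaks within 50 kb, leaving out members and peaks centred within 1 kb of one, and tested over 15675 genes by edgeR with Benjamini-Hochberg adjustment. Of 183 genes nearest to a member and with such other peaks (954 in all), 90 rose in mild FPC livers (49.2%, against 19.6% of all genes) and 13 fell (7.10% against 20.5%). In mild CDAHFD livers 95 rose (51.9% against 22.1%) and 25 fell (13.7% against 23.2%). In advanced FPC livers 100 rose (54.6% against 30.6%) and 28 fell (15.3% against 30.4%). In advanced CDAHFD livers 103 rose (56.3% against 28.3%) and 36 fell (19.7% against 30.0%). These genes had a median of 4 other peaks, against 2 for all genes, and more peaks give a test more counts.

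Some of those other peaks were themselves opening peaks. With every opening peak left out, an alternative added after the data were seen, 84 of 181 genes rose in mild FPC livers (46.4%), against 32.2% of genes nearest only to other opening peaks and 20.2% of all genes. In mild CDAHFD livers 91 rose (50.3%, against 36.0% and 22.8%). In advanced livers the share was 52.5% on FPC, against 50.6% of genes nearest only to other opening peaks and 31.8% of all genes. On CDAHFD it was 54.1%, against 48.6% and 29.1%.

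Other peaks rose with the member at several of the genes described above. At Ttc39a they summed to 55.0 ± 3.59 CPM in mild and 24.9 ± 3.98 CPM in control livers on FPC (SD, n = 4 each), a change of 1.09 ± 0.12 (edgeR adjusted p = 4.2e-07), and the change was 1.59 ± 0.11 on CDAHFD (adjusted p = 6.3e-11). At Cdkn1a the 1 other peak rose by 1.15 ± 0.17 on FPC and 1.14 ± 0.15 on CDAHFD. Those of Cd36 rose by 0.45 ± 0.10 on FPC (edgeR adjusted p = 0.0018) and 0.46 ± 0.10 on CDAHFD (adjusted p = 0.00066). Mafk, Ier3, Ccl2, Wnt4, Anxa2 and Pnpla2 also rose on both diets. Of the genes named here, Mafk, Ier3, Ccl2 and Cdkn1a also had other opening peaks, which were chosen by their control level and advanced change. Such peaks stay in these sums unless centred within 1 kb of a member, so the rises at these genes are a description. Near Slc22a12, a urate transporter gene, the 1 other peak rose by 2.22 ± 0.24 on FPC and 3.09 ± 0.25 on CDAHFD.

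At other genes the other peaks did not rise on both diets. The other peaks of Cidec summed to 98.5 ± 11.7 CPM in mild and 91.4 ± 7.48 CPM in control livers on FPC, a change of 0.05 (edgeR adjusted p = 0.65), and the change was -0.02 on CDAHFD (adjusted p = 0.83). Plin4 rose by 0.35 ± 0.11 on FPC (edgeR adjusted p = 0.015) and was at 0.08 on CDAHFD (adjusted p = 0.54). Other peaks of Themis fell by 0.66 on FPC (edgeR adjusted p = 1.0e-06) and by 0.43 on CDAHFD (adjusted p = 3.5e-05), opposite to its member. The Tubb2a peaks fell by 0.31 on CDAHFD (edgeR adjusted p = 0.00017). Jag1 and Saa3 passed in neither mild group.

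Fewer members lay close to a start than of the peaks they were drawn from. Of the 262 members, 51.5% were intergenic in the deposited annotation, against 36.3% of other opening peaks and 30.6% of all peaks. Introns held 36.6% of members, 42.2% of other opening peaks and 40.3% of all peaks. A start lay within 1 kb of 28 members (10.7%), against 21.2% of other opening peaks and 29.2% of all peaks, and within 50 kb of 212 (80.9%, against 83.2% and 82.5%). The median distance was 15741 bp for members, 12559.5 bp for other opening peaks and 8727 bp for all peaks, while the upper quartile was lower in members than in other opening peaks, at 32837, 35582 and 32654 bp in the same order. The detailed annotation put 47 members in a repeat (17.9%, against 11.4% and 14.1%). Of these, 19 lay in LTR elements (7.25% of members, against 3.75% and 5.17%) and 17 in SINEs (6.49%, against 4.15% and 4.915%). No member lay on chromosome X, which held 19 other opening peaks and 1195 of all peaks. These shares are a description with no test.

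**Figure D5:**
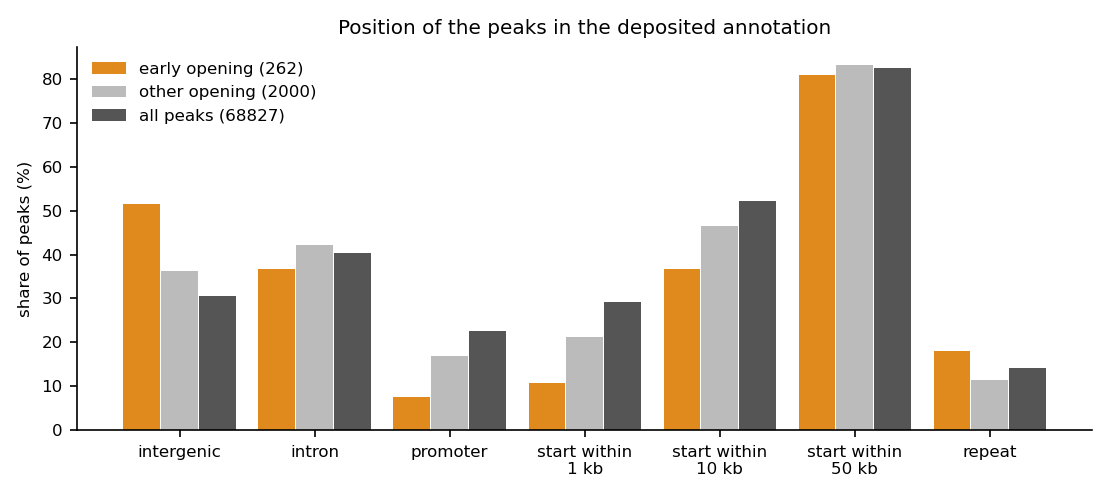
Share of peaks (percent, vertical axis) by deposited region type, by distance to the nearest start and in repeats, for 262 early opening peaks, 2000 other opening peaks and all 68827 peaks (bars). Intergenic peaks make up 51.5% of early opening peaks and 30.6% of all peaks, and peaks with a start within 1 kb 10.7% and 29.2%.

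Of 22 gene lists with 464 genes, 12 held no member. The biliary and progenitor list had 0 members among 92 peaks but 12 other opening peaks, at genes that include Cldn4, Krt18, Krt8, Prom1, Sox4 and Sox9. The YAP and TEAD list had 0 members and 7 other opening peaks of 80, and secreted fibrosis factors 0 and 8 of 112. The NF-kB and inflammation list had 1 member, at Ccl2, and 15 other opening peaks of 143, and the AP-1 and immediate early list 2 members and 6 other opening peaks of 107. Members make up 0.373% of all peaks within 50 kb of a start, so having 0 members does not set a list of this size apart.

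The lists were also counted over the other peaks of their genes, and 3 of them, chosen after their values were seen, are given. Of 22 lipid droplet genes, 12 rose and 2 fell in mild FPC livers (19.6% and 20.5% of all genes), whereas 7 rose and 5 fell in mild CDAHFD livers (22.1% and 23.2%), by edgeR over all genes. In advanced livers 6 rose and 5 fell on FPC (30.6% and 30.4% of all genes), and 6 rose and 6 fell on CDAHFD (28.3% and 30.0%). Of 20 biliary and progenitor genes, 11 rose in mild and 19 in advanced FPC livers, 13 rose in mild and 15 in advanced CDAHFD livers, and 0 fell. Among the 18 genes of the AP-1 and immediate early list, 7 rose and 1 fell in mild FPC livers, and 9 rose and 2 fell in mild CDAHFD livers. Other opening peaks, chosen by their control level and advanced change, stay in these sums unless centred within 1 kb of a member. The 3 lists hold 3, 12 and 6 of them in the order given, so these counts are a description.

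RefSeq promoter windows (250 bases before to 50 after each start) were searched whole, and 15 members overlapped 16 of 32817 windows. The AP-1 letters TGANTCA were in 4 of the 16 windows (25%), in 11.5% of 287 windows at other opening peaks, in 4.78% of 11886 windows at any peak and in 7.81% of all windows. The C/EBP letters TTGCNNAA were in 3 windows (18.8%, against 8.36%, 8.78% and 10.8%). The ETS letters GGAAGT were in 5 windows (31.2%, against 22%, 28.3% and 23.8%). Each of TEAD (GGAATG), KLF/SP (GGGGCGGGG) and NF-kB (GGANNTTCC) was in 2 windows. FOXA (TGTTTAC), HNF4A (CAAAGTCCA), PPAR:RXR (AGGTCANAG), NFI (TTGGCA), STAT (TTCNNNGAA), HNF1 (GTTAATNAT) and NRF2 or small Maf (TGACNNNGC) were each in 1. RUNX (TGTGGTT), IRF (GAAANNGAA), NRF1 (GCGCATGCG), SOX (AACAAAG) and SREBP (TCACCCCAC) were in none of the 16. A match in a window may lie outside the member. Both strands were searched, and matches of different motifs may overlap. With 16 windows these shares are a description, and a match is not a bound site.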

How the data were processed

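ATAC-seq was made from hepatocyte nuclei of 22 mice and sequenced in read pairs, per the labels' protocols. The submitters' processing notes name BWA 0.7.5a-r405, then SAMtools, HOMER and DESeq2, and the mm10 build, with no role for each. The table that the authors deposited holds expected counts per peak, un-normalized and in steps of 0.5 (47.8% of values carry a fraction), and the reason for the steps is not given in the sources used here. Region type, nearest gene and distance to its start are the authors' deposited annotation. Groups came from the sample titles, replicate numbers only name libraries, and no batch is named in the labels. Each library came from its own mouse.

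For the rule, CPM was taken from column totals. For tests, counts were rounded to whole numbers and fitted in R 4.3.3 with edgeR 4.0.16 (TMM scaling, filterByExpr, which kept all 68827 peaks, quasi-likelihood, 6 groups, 22 libraries), with p-values adjusted by Benjamini-Hochberg over all peaks or all 15675 genes and calls at an adjusted p under 0.05. Standard errors were taken as the log2 change divided by the square root of F. DESeq2 1.42.0 and limma 3.58.1 were installed, and DESeq2 was an alternative. The fits were tested on simulated data first.

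The members and gene lists were chosen with earlier results of these data known. Peaks named in the text were those with the largest mild change within 50 kb of a start, those within 1 kb of a start, those with the highest control level, the highest mild share, up to 2 per gene list, the genes with most members, the diet differences and the peaks next to the limit of 80%. Others are said to have been added after their values were seen. Alternatives changed the rule, the scaling, the test, the filter, the window and the libraries. No genome of the build was used, so GC content and motifs outside promoter windows were not analysed here. Some of the named peaks and genes are not reported here.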

Additional observations from a re-analysis of the deposited data

Results flagged for a closer look

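In the groups of 4 libraries, 1 value stood apart from the rest of its group by Dixon's test in 17 of 196 groups of values, where chance flags about 1 in 20, or 9.8. Among members on FPC, 1 mild library was high at Plin4 (32.5 CPM against 29.7 to 30.1 CPM in the others), Angptl4 (11.4 CPM against 7.45 to 7.93 CPM) and Cdkn1a (7.46 CPM against 5.88 to 6.07 CPM), and 1 was low at Tyw1 (11.6 CPM against 18.1 to 18.9 CPM). In FPC controls 1 library was low at BC029722 (1.44 CPM against 2.57 to 2.74 CPM) and Stk40 (11.8 CPM against 15 to 15.5 CPM) and high at Airn (3.601 CPM against 1.59 to 1.87 CPM). In mild CDAHFD livers 1 library was high at 9030616G12Rik (26.2 CPM against 23.3 to 23.8 CPM), Ccl2 (17.6 CPM against 15.5 to 15.9 CPM) and Jag1 (16.8 CPM against 8.16 to 9.45 CPM), and low at Fam131c (35.8 CPM against 38.0 to 38.2 CPM). In CDAHFD controls 1 library was high at Jag1 (10.03 CPM against 1.43 to 2.85 CPM) and at the Ttc39a start (3.49 CPM against 2.84 to 2.86 CPM), and low at Cdkn1a (2.49 CPM against 3.10 to 3.22 CPM) and at the non-member peak near Mthfd1l (4.17 CPM against 5.31 to 5.54 CPM). The summed level of members was low in 1 mild CDAHFD library (3550 CPM against 3789 to 3809 CPM), and 1 FPC control was deeper than the others (6.04 counts in units of 1e6, against 3.79 to 4.17).

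By edgeR's test of the difference, on libraries that the rule also used, the mild change was called different between the diets at the overlapping Tyw1 pair (-1.48 and -1.39, FPC minus CDAHFD on the log2 scale), at Sult2a6 (-1.28) and at B230214G05Rik (1.89).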

How the results depend on the processing

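The number of members followed the rule closely. It was 422 with a control minimum of 1 CPM, 616 at 70%, 101 at 90% and 151 with 80% asked of each diet, and 250 with TMM-scaled CPM or 214 with a pseudocount of 1. Leaving out 1 library gave 242 to 295 peaks, and 117 of the 262 members were kept in all 22 of these settings. With fixed members, the count called for the diet difference of the mild change was 11 with DESeq2 (7 with edgeR) and 7 to 10 with 1 library left out. Leaving out 1 library gave 1 to 5 members for the diet difference of the advanced change, 3 to 11 for the control groups, 13 to 38 called higher in advanced than mild livers on FPC and 13 to 30 on CDAHFD, 254 to 259 in mild against control livers on FPC, 258 to 260 on CDAHFD, 260 to 261 in advanced against control livers on FPC and 260 to 262 on CDAHFD. Genes whose other peaks rose numbered 80 to 88 in mild FPC, 85 to 94 in mild CDAHFD, 93 to 99 in advanced FPC and 98 to 104 in advanced CDAHFD livers. No named peak changed direction. No paired analysis was possible because the mice are separate and numbers are not shared between groups. The motif alternative was not run, since it needs a genome of the build. Depth limits members most in controls, where the median level was 3.76 CPM.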
